A study of Aptenodytes patagonicus with 7 samples.

Results

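The SLC25 family of mitochondrial solute carriers was examined in the pectoralis muscle, the muscle of the wing stroke, of juvenile king penguins (*Aptenodytes patagonicus*). The members were the genes whose symbol on the chicken array begins with SLC25A, with SLC25A4, SLC25A6 and SLC25A20 left out, and where a gene had several probe sets the one with the highest mean over the 7 birds stood for it. This gave 30 of the 12920 genes with a symbol of their own. All 30 symbols are also gene names in the RefSeq annotation of the king penguin genome (assembly bAptPat1.pri.cur). The rule uses the symbol and the mean over all birds. Beyond the authors' own filter of probes by background level, no member was removed for a low signal.

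RNA of 7 birds was hybridized to Affymetrix Chicken Genome Arrays, 1 array for each bird. The sea-acclimated (SA) group held 3 juveniles fully acclimated to the sea, 2 females and 1 male, and the never-immersed (NI) group held 4 juveniles not yet immersed in the sea, 3 females and 1 male. The birds were captured in the wild at these 2 stages and their exact ages are not given, so that sea life, time and whatever else separated the captures cannot be told apart. The deposited values are log2 intensities, quantile normalized between arrays, of a single probe for each probe set. The probes are of chicken sequence, so brightness also depends on how well a probe matches the penguin transcript. A brighter probe set need not mean a more abundant transcript.

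Carriers of this family sit mostly in the inner mitochondrial membrane, which is otherwise closed to most charged metabolites. Each moves a small group of substrates, such as phosphate, nucleotides, di- and tricarboxylates, amino acids, iron or cofactors, often by exchange of one molecule for another. In muscle they feed the citric acid cycle and the respiratory chain, export ATP and carry the reducing equivalents of the malate-aspartate shuttle.

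The arrays were of skeletal muscle by their markers: the 10 measured muscle genes had mean log2 intensities of 12.84 to 15.27, each above at least 98.9% of the 36897 probe sets. Array medians lay between 8.58 and 8.59. Over the whole table, limma called 394 probe sets (1.07%) at a Benjamini-Hochberg adjusted p under 0.10, the threshold used throughout, and the correlations between arrays within groups (0.949 to 0.979) overlapped those between groups (0.941 to 0.974). Among the other cell types that a biopsy can hold, 4 of 11 fibroblast markers and 1 of 6 nerve markers were lower in SA. Of 11 erythroid markers 1, TFRC, was lower, and the median log2 difference of the 11 was -0.01. Of 8 adipocyte markers 1, RBP7, was higher, and none of 10 endothelial and 7 leukocyte markers passed. The summed fibroblast signal was 12.95 to 13.58 (log2) in SA birds and 14.06 to 14.82 in NI birds. The adipocyte sum was 13.32 to 13.57 in SA birds and 12.81 to 13.16 in NI birds. RBP7 (log2 difference 1.13, limma adjusted p = 0.0714) was by far the brightest of these 8 markers, and no sum was taken without it. Of the 8, 5 had a positive sign and 3 a negative one: ADIPOQ (-0.30), LPL (-0.26) and PLIN1 (-0.12). Of the 10 muscle markers 1, TNNC2, was lower in SA (log2 difference -0.94, limma adjusted p = 0.0341). The muscle sum was 17.62 to 17.70 in SA birds and 17.74 to 17.77 in NI birds. The sums of the other cell types overlapped between the groups. What part these cell types have in the carrier values was not tested. In a biopsy, fewer cells of a type and less RNA per cell cannot be told apart.

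None of the 30 carriers passed limma's adjusted threshold in either direction, where 1.55% of all genes did by their brightest probe sets. At an unadjusted p under 0.05, however, 1 carrier was higher and 11 were lower in SA, 40.0% of the family against 12.4% of all genes (5.79% higher and 6.66% lower). Most carriers (24 of 30) had a mean above the median probe set, and among all genes above it 14.4% had such a p. The log2 difference was below 0 in 20 of 30 carriers, and in 49.4% of all genes. Its median was -0.17 over the family, with quartiles of -0.58 and 0.06, where the genes as a whole had a median of 0.00 and quartiles of -0.13 and 0.14. The count of 12 was 7 without NI bird 2, without SA bird 2 or without SA bird 3, all of them lower in SA. That is 23.3% of the family, where 9.24%, 8.53% and 8.03% of all probe sets had such a p in the same fits. With all birds the share over all probe sets was 10.4%. These counts describe the family and are not a test of it.

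**Figure D1:**
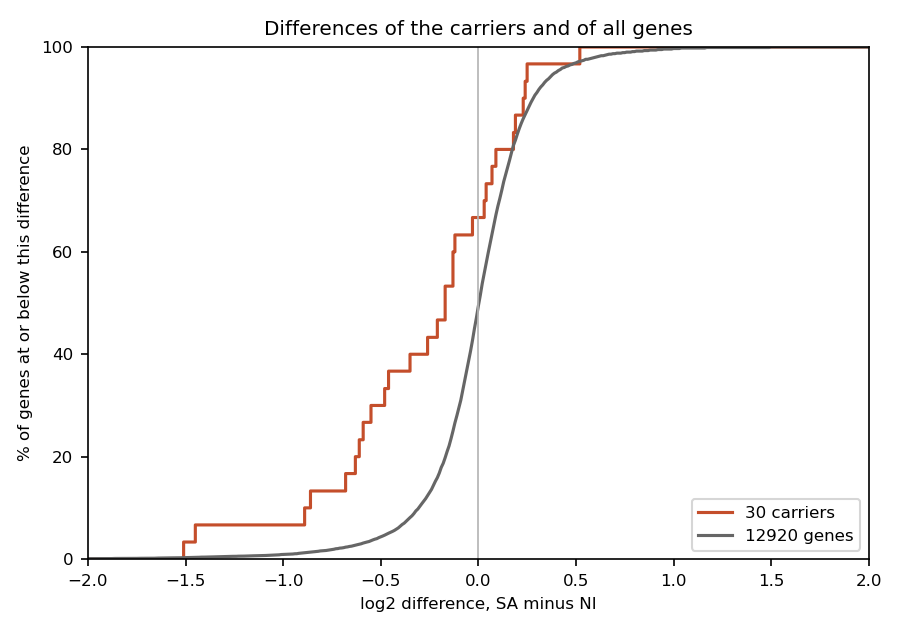
Cumulative percentage of the 30 carriers (red steps) and of the 12920 genes (grey line) at or below each log2 difference of SA minus NI. The red steps lie left of the grey line over most of the range, with medians of -0.17 and 0.00.

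In 9 of the 30 carriers (30.0%) no SA bird overlapped any NI bird, 8 with the SA birds below and 1 with them above. Over all genes 11.5% were separated in this way, 5.93% with SA below and 5.6% with SA above, and over the genes above the median probe set 12.8% were. The median deviation of the 30 carriers from the NI mean was -0.19, -0.24 and -0.30 in SA birds 1, 2 and 3, against -0.05, 0.12, -0.11 and -0.04 in NI birds 1 to 4. The NI mean comes from these same NI birds, so their deviations centre on it by construction, and those of SA birds need not. Over all genes the same medians lay between -0.01 and 0.02 in every bird, which quantile normalization of the arrays favours. The contrast between birds is a description only. Single birds took a large share of the extremes: NI bird 2 had the highest value in 12 of the carriers (12.8% of genes), and SA birds 3 and 1 had the lowest in 9 and 8 (14.1% and 16.9% of genes). The carriers also varied more between birds of a group than genes did, with a median SD of 0.234 in SA and 0.256 in NI, against 0.178 in either group over all genes. No SD was taken over the genes above the median probe set alone, where most carriers lie.

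**Figure D2:**
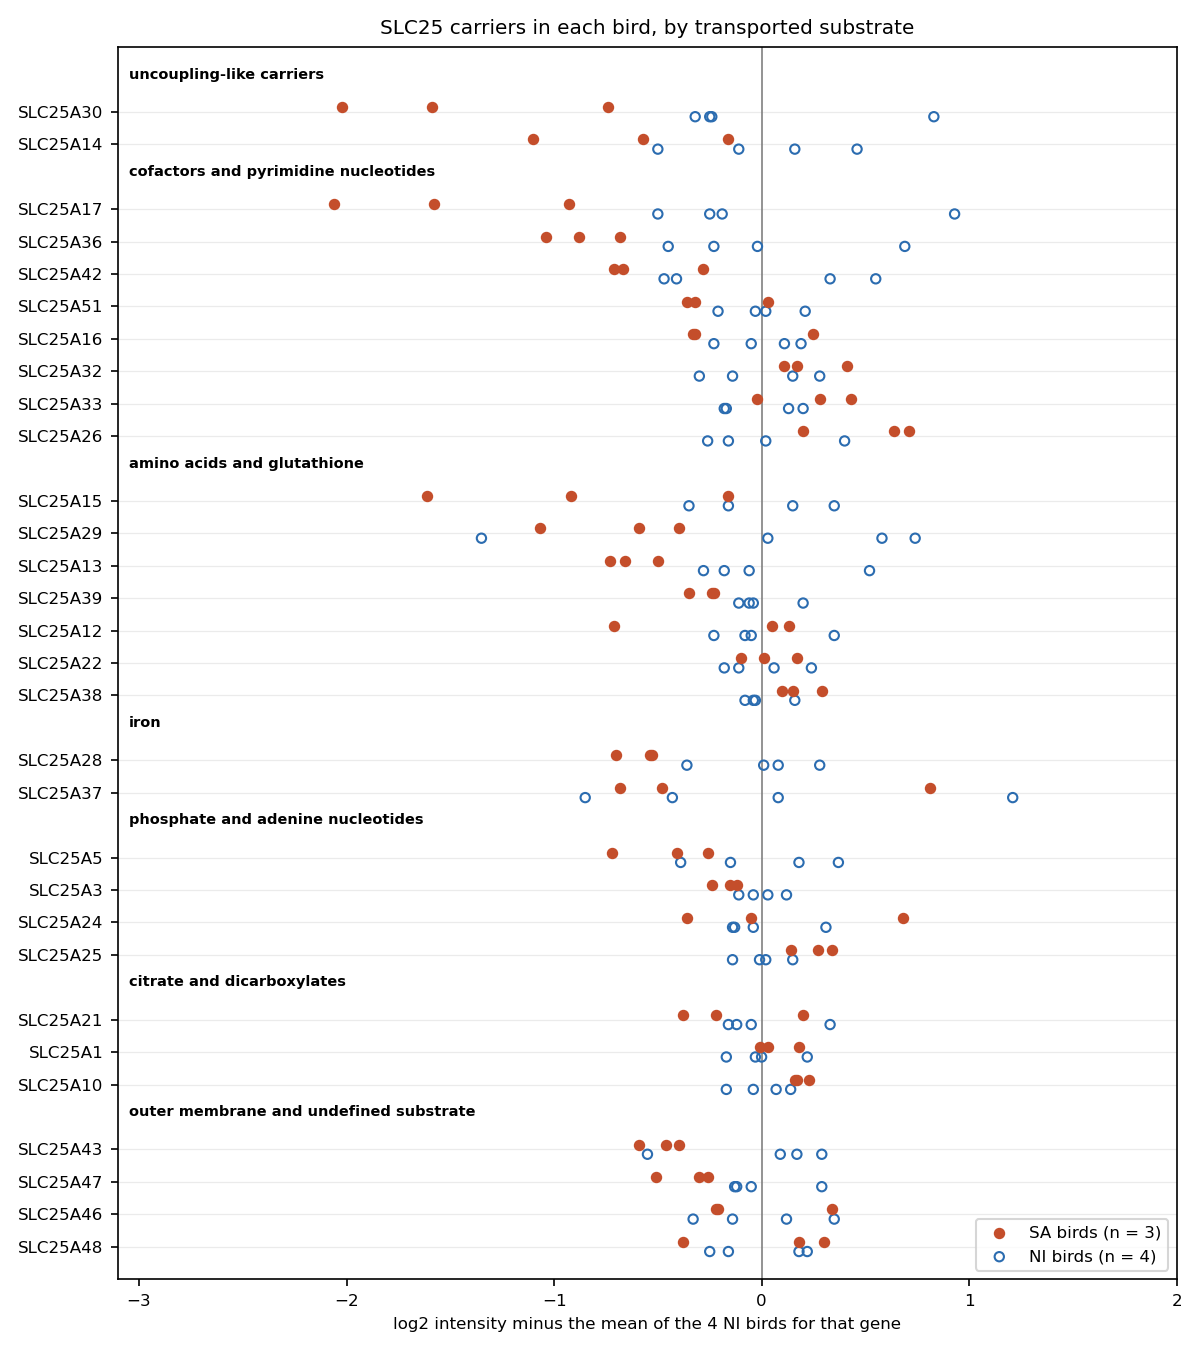
Log2 intensity of each carrier in each bird, minus the mean of the 4 NI birds for that gene, with SA birds as filled red points and NI birds as open blue points just beneath them. Rows are grouped by substrate. SLC25A30 and SLC25A17 have the SA birds farthest to the left, and the rows of citrate and dicarboxylate carriers show little distance between the groups.

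By the chosen probe sets, the carriers of cofactors and nucleotides held both the largest negative and the largest positive difference of the family. SLC25A17, which carries coenzyme A, FAD and NAD across the membrane of the peroxisome and not of the mitochondrion, had log2 intensities of 7.75, 8.23 and 8.88 in SA birds, against 9.31, 10.74, 9.56 and 9.62 in NI birds. Every SA bird was below every NI bird, and NI bird 2 stood well above the other NI birds. The difference was -1.52 (standard error 0.35, limma adjusted p = 0.123), a 2.87-fold lower signal in SA that did not pass the test. The other probe set of SLC25A17 had the same order of the groups but a difference of only -0.21.

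SLC25A36, a pyrimidine nucleotide carrier, had 10.03, 9.83 and 9.67 in SA birds, against 10.69, 11.40, 10.48 and 10.26 in NI birds. The groups did not overlap and NI bird 2 was again the highest. The difference was -0.86 (standard error 0.24, limma adjusted p = 0.198), while its 2 other probe sets lay at 0.13 and -0.05.

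SLC25A26 brings S-adenosylmethionine, the methyl donor, into mitochondria. It had 8.74, 9.25 and 9.18 in SA birds, against 8.38, 8.28, 8.94 and 8.56 in NI birds, and was the 1 carrier above 0 at an unadjusted p under 0.05. SA bird 1 overlapped NI bird 3, and the difference was 0.52 (standard error 0.19, limma adjusted p = 0.340). Its second probe set lay at 0.04. The remaining 5 carriers of this group, for coenzyme A, folate, pyrimidine nucleotides and NAD, had differences from -0.55 (SLC25A42) to 0.23 and overlapping groups. For SLC25A32, the folate or FAD carrier, a dimmer probe set lay at 0.54 (limma adjusted p = 0.415). There every SA bird was above every NI bird. Its other unchosen probe sets lay at 0.03, 0.05 and 0.18 with overlapping groups.

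A pair of carriers resemble the uncoupling proteins in sequence. SLC25A30, first described in kidney, had 9.65, 10.08 and 10.93 in SA birds, against 11.43, 12.50, 11.42 and 11.35 in NI birds. No SA bird reached the NI range, and NI birds 1, 3 and 4 lay close together with NI bird 2 far above them. The difference was -1.45 (standard error 0.35, limma adjusted p = 0.132), a 2.74-fold lower signal in SA. This gene has no second probe set.

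SLC25A14, abundant in brain in mammals, had 10.31, 9.90 and 9.37 in SA birds, against 10.93, 9.97, 10.36 and 10.63 in NI birds. The groups overlapped, with a difference of -0.62 (standard error 0.26, limma adjusted p = 0.444) that was -0.37 without SA bird 3, and a second, much dimmer probe set lay at 0.26.

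**Figure D3:**
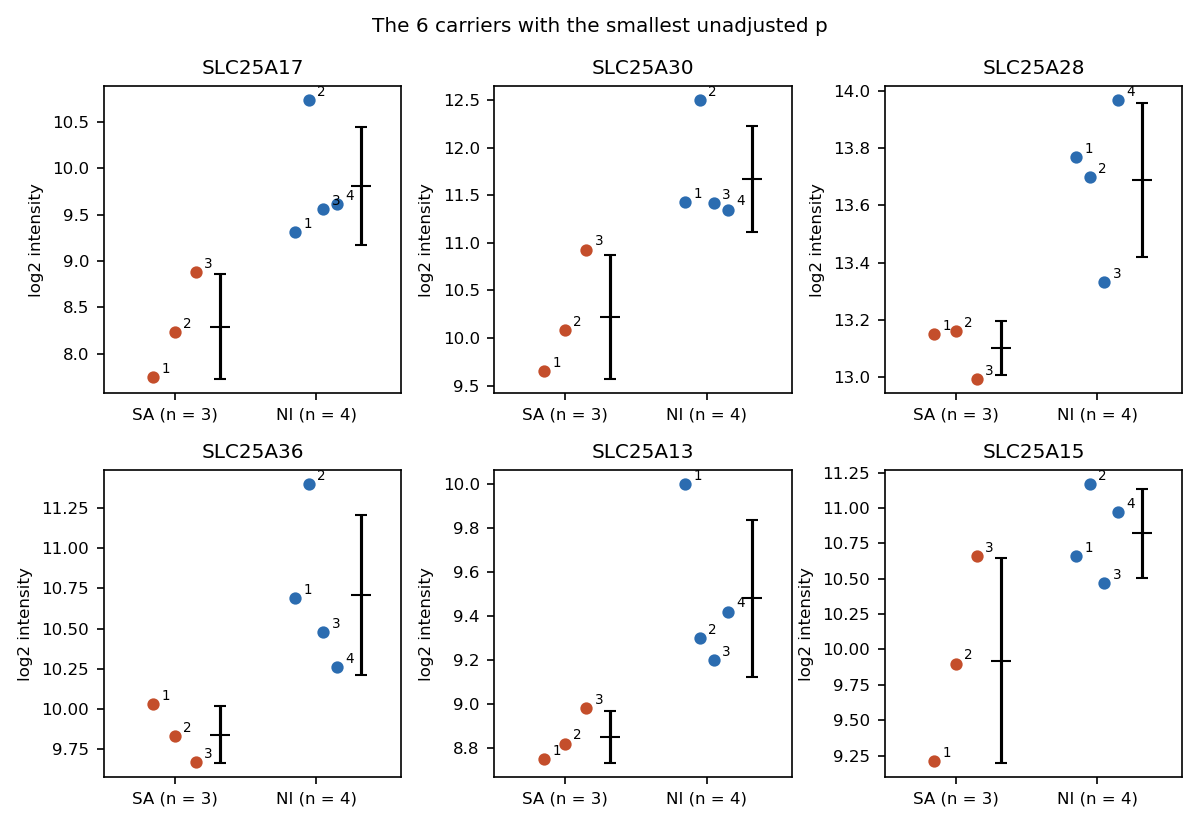
Log2 intensity in each bird for the 6 carriers with the smallest unadjusted p, SA on the left and NI on the right of each panel, with the bird number beside each point and the mean ± SD beside each group (n = 3 and 4). In SLC25A17, SLC25A30, SLC25A28, SLC25A36 and SLC25A13 every SA bird is below every NI bird, and in SLC25A15 SA bird 3 reaches the NI range.

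Mitoferrins bring iron into the mitochondrial matrix for heme and iron-sulfur clusters. SLC25A28, mitoferrin 2, is the form of most tissues, and SLC25A37, mitoferrin 1, is known from developing red cells. SLC25A28 had 13.15, 13.16 and 12.99 in SA birds, against 13.77, 13.70, 13.33 and 13.97 in NI birds. The SA birds lay close together and below all NI birds, of which NI bird 3 was nearest to them. The difference was -0.59 (standard error 0.16, limma adjusted p = 0.168). Its second probe set repeated both the order and the size, with 11.93, 12.22 and 12.16 in SA birds, 13.17, 12.93, 12.35 and 12.43 in NI birds and a difference of -0.61. This was the 1 carrier of the 5 with the smallest p in which another probe set had a difference of like size. Without NI bird 3 SLC25A28 passed the test (log2 difference -0.71, limma adjusted p = 0.0670), as it did in none of the fits that left out another bird.

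SLC25A37 behaved otherwise. It had 10.84, 9.35 and 9.55 in SA birds, against 9.60, 10.11, 9.18 and 11.24 in NI birds. The groups overlapped fully and the difference was -0.12 (standard error 0.49, limma adjusted p = 0.971), so that birds within a group differed far more than the groups did. Its sign turned without SA bird 2 (0.16), SA bird 3 (0.06) or NI bird 4 (0.28). NI bird 4, SA bird 1 and NI bird 2 were the 3 highest, in that order.

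Of the 11 measured markers of the red cell lineage, 4 (HBA1, HBAD, HBE and TAL1) had these 3 birds as their highest and 7 (HBZ, TFRC, SLC4A1, EPB42, RHAG, HEMGN and ANK1) had others. HBAD, an alpha-type globin, had 14.42, 13.53 and 13.64 in SA birds, against 12.77, 14.29, 14.04 and 14.80 in NI birds. TAL1, a transcription factor of blood formation, had 11.19, 10.38 and 10.49 in SA birds, against 10.28, 10.78, 10.49 and 11.36 in NI birds. The summed signal of the 11 erythroid markers was 15.87 to 16.28 in SA birds and 15.40 to 16.39 in NI birds, and what part blood in the biopsy has in the SLC25A37 values was not tested. The 3 dimmer probe sets of SLC25A37 lay at 0.24, 0.04 and -0.36. In the first of these every SA bird (9.28 to 9.44) was above every NI bird (9.02 to 9.15, limma adjusted p = 0.467), and in the others the groups overlapped.

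**Figure D4:**
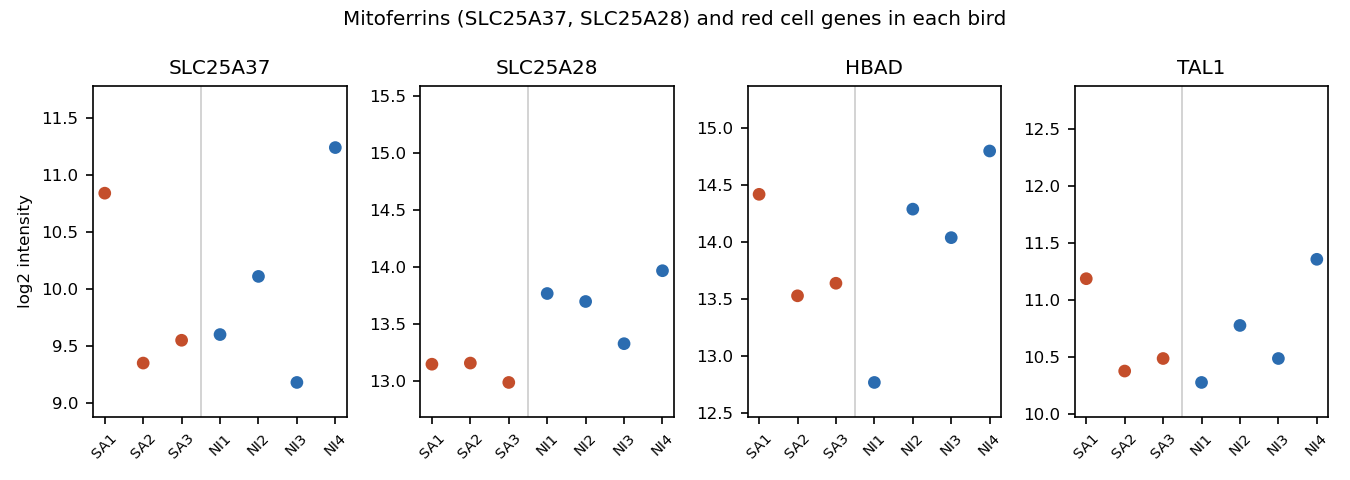
Log2 intensity in each bird of the mitoferrins SLC25A37 and SLC25A28 and of the red cell genes HBAD and TAL1, with SA birds in red on the left and NI birds in blue on the right. NI bird 4 and SA bird 1 are the 2 highest in the panels of SLC25A37, HBAD and TAL1, while in SLC25A28 all SA birds lie below all NI birds. HBAD and TAL1 are from the 4 of 11 erythroid markers with the same 3 highest birds as SLC25A37. The other 7, not shown, had other highest birds.

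Of the 7 carriers of amino acids and glutathione, 5 had a negative and 2 a positive difference. SLC25A13 is one of a pair of calcium-activated aspartate/glutamate carriers of the malate-aspartate shuttle. It had 8.75, 8.82 and 8.98 in SA birds, against 10, 9.30, 9.20 and 9.42 in NI birds. The groups did not overlap, and the difference was -0.63 (standard error 0.19, limma adjusted p = 0.222). A second probe set also had every SA bird below every NI bird (-0.35), while the remaining one lay at 0.13. Its sister SLC25A12, the form of muscle and brain in mammals, had overlapping groups and a difference of -0.18. SA bird 1 at 11.88 was its lowest value against 12.36 to 12.94 in the other birds, and without SA bird 1 the sign turned (0.09).

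SLC25A15, the ornithine carrier of the urea cycle in mammals, had 9.21, 9.90 and 10.66 in SA birds, against 10.66, 11.17, 10.47 and 10.97 in NI birds. SA bird 3 lay within the NI range, and the difference was -0.89 (standard error 0.31, limma adjusted p = 0.311). It was -0.53 without SA bird 1. Its other, dimmer probe set had the opposite sign at 0.49.

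SLC25A39, a glutathione carrier, showed how far probe sets of 1 symbol can part. By the brighter probe set it had 10.43, 10.55 and 10.54 in SA birds, against 10.72, 10.98, 10.74 and 10.67 in NI birds, all SA birds below, with a log2 difference of -0.27 and an adjusted p of 0.460 from limma. By the next probe set the values were 10.74, 10.53 and 10.61 in SA birds and 10.21, 10.33, 10.17 and 10.14 in NI birds, all SA birds above and a difference of 0.41 (standard error 0.11, limma adjusted p = 0.178). Its direction is therefore not settled by these arrays.

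SLC25A29, a carrier of basic amino acids, had the widest NI range of the family, with 11.19, 10.52 and 11.00 in SA birds, against 12.17, 12.33, 11.62 and 10.24 in NI birds. NI bird 4 was below every SA bird and the other NI birds were above them. Its difference of -0.69 had a standard error of 0.44, and without NI bird 4 it was -1.14 (limma adjusted p = 0.115). The glycine carrier of heme synthesis SLC25A38 (0.18) and the glutamate carrier SLC25A22 (0.03) had overlapping groups.

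SLC25A3, the phosphate carrier that supplies the ATP synthase, lay between 13.56 and 13.68 in SA birds and between 13.69 and 13.92 in NI birds. The highest SA bird and the lowest NI bird thus lay side by side without overlap, and the difference was -0.17 (standard error 0.11, limma adjusted p = 0.677). Its 95% interval, -0.41 to 0.07, had the smallest half-width of the family (0.24). SLC25A5, an ADP/ATP carrier, had 9.95, 10.41 and 10.26 in SA birds, against 10.28, 11.04, 10.85 and 10.52 in NI birds. SA bird 2 lay within the NI range, SA bird 3 just below it and SA bird 1 further below, and the difference was -0.46 (standard error 0.19, limma adjusted p = 0.435). The ATP-Mg/phosphate carriers SLC25A24 and SLC25A25, which set the adenine nucleotide content of the matrix, lay at 0.09 and 0.25. For SLC25A25 a second probe set of the same brightness lay at 0.04. The last, nearly as bright, lay at -0.31 with every SA bird below every NI bird (limma adjusted p = 0.428). The groups overlapped in the chosen probe set, so the direction of SLC25A25 is not settled either.

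The 3 carriers of citrate and dicarboxylates had differences from -0.13 to 0.19, none with an unadjusted p under 0.05. SLC25A10, the dicarboxylate carrier, had 9.33, 9.26 and 9.27 in SA birds, against 9.24, 9.17, 8.93 and 9.06 in NI birds. It was the 1 carrier with all SA birds above all NI birds, by a narrow margin, and had a difference of 0.19 (standard error 0.11, limma adjusted p = 0.658). Among the others, the citrate carrier SLC25A1 lay at 0.06 with a 95% interval of -0.22 to 0.34, and SLC25A21, a carrier of oxodicarboxylates, at -0.13.

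The last group holds SLC25A46, a protein of the outer membrane that acts in mitochondrial fusion and fission, and carriers whose substrates are less well known. SLC25A43 had 9.08, 8.95 and 9.14 in SA birds, against 9.71, 9.83, 8.99 and 9.63 in NI birds. NI bird 3 lay among the SA birds and the other NI birds well above them. The difference was -0.48 (standard error 0.19, limma adjusted p = 0.403), and without NI bird 3 it was -0.67 (limma adjusted p = 0.0694), past the threshold. Its second probe set lay at -0.04 and the mean of both at -0.26. SLC25A47, known from liver in mammals, was dim, with 7.32, 7.11 and 7.36 in SA birds, against 7.49, 7.91, 7.50 and 7.57 in NI birds. The groups did not overlap and the difference was -0.36 (standard error 0.14, limma adjusted p = 0.385). It is 1 of 3 carriers, with SLC25A21 and SLC25A51, among the dimmest 25% of probe sets (means below 7.84). SLC25A46 and SLC25A48 lay at -0.03 and 0.04.

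A second reading of the family came from the probe sets that the rule had not chosen. The 20 carriers with several probe sets had 32 others, by the rule dimmer than the chosen one of the same gene. The median of their means was 8.22, against 9.73 for the chosen probe sets of all 30 carriers. None of the 32 others passed either (smallest limma adjusted p 0.178). At an unadjusted p under 0.05 4 of them were higher and 3 lower in SA, where 10.4% of all probe sets had such a p (5.04% higher and 5.4% lower). Their median difference was 0.04, with 13 below 0 and 19 above. In 12 of the 20 carriers the second brightest probe set had the sign of the brightest and in 8 the opposite sign. The difference between the chosen and the other probe sets was not tested. Among the chosen probe sets 12 end in _s_at, the array maker's mark for probes shared by several transcripts, and those of SLC25A17, SLC25A36 and SLC25A13 are of this kind. Whether related carriers shared signal on the chicken array was not tested. The paper states that the extent of cross-hybridization could not be quantified, and proposes that its effect should be slight. How far the match of each probe to the penguin sequence sets the disagreements between probe sets was not tested.

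**Figure D5:**
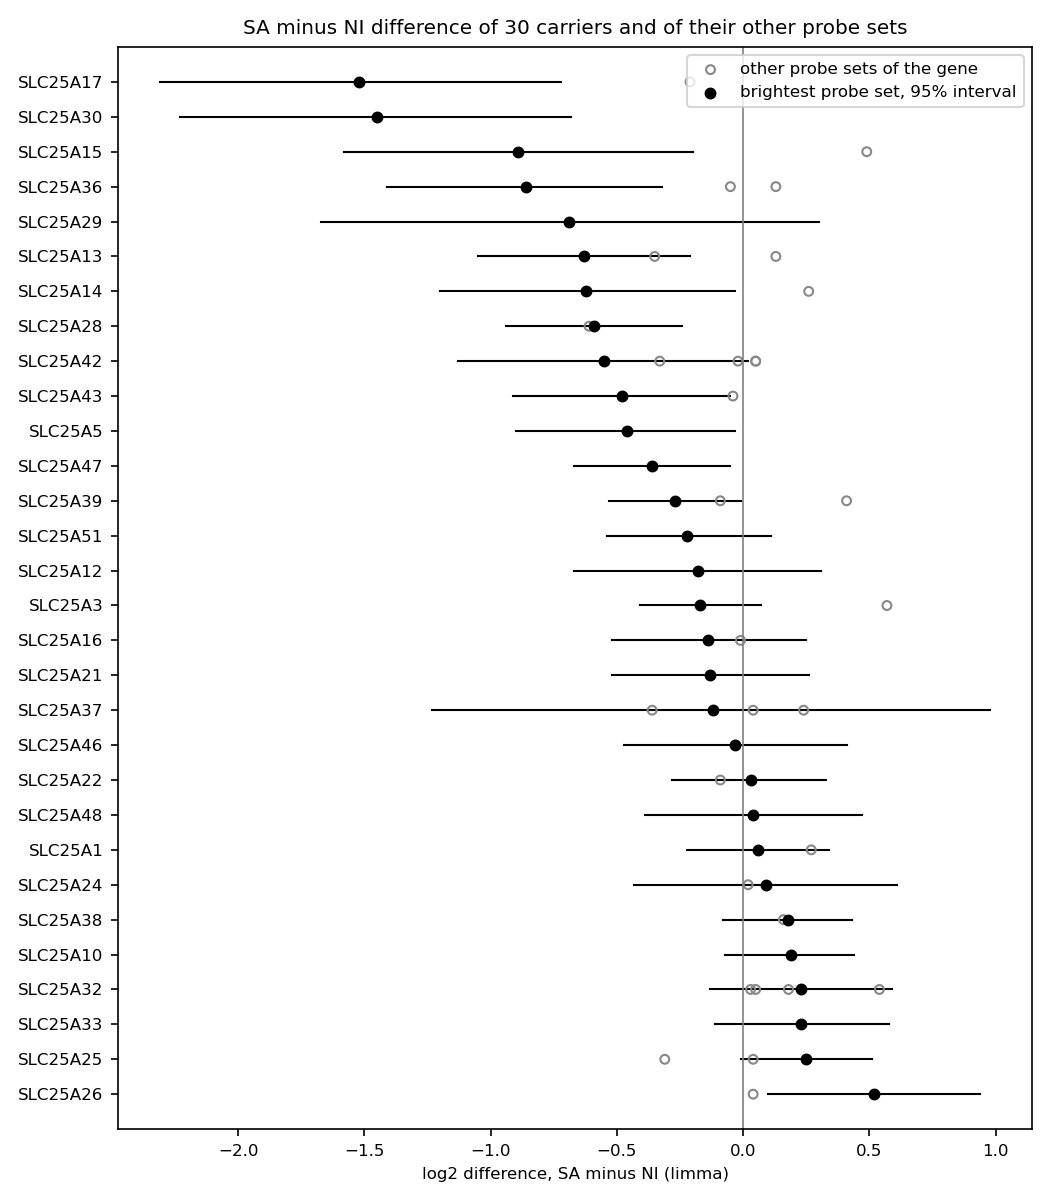
Log2 difference of SA minus NI for each of the 30 carriers (filled points, with the 95% interval from limma) and for the other probe sets of the same gene (open grey points). The chosen probe sets run from -1.52 for SLC25A17 to 0.52 for SLC25A26, and the open points have a median of 0.04.

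The precision of these values set what could be seen. The 95% intervals had a median half-width of 0.42 log2 units, from 0.24 to 1.10 over the 30 carriers, and the smallest difference called over the whole table was 0.51. For 16 carriers the estimate was within 0.25 of 0, but a p above the threshold does not show that a carrier stayed the same. Both the larger differences (SLC25A17 and SLC25A30, each past 1 log2 unit) and those of SLC25A15, SLC25A14 and SLC25A29 came with SDs of 0.313 to 0.950 within the groups.

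Family members outside the rule were compared as well. UCP3, the muscle uncoupling protein, was the 1 that passed: it had 9.46, 8.95 and 8.88 in SA birds, against 10.48, 10.07, 11.19 and 10.39 in NI birds, and fell by 1.44 (standard error 0.25, limma adjusted p = 0.0523). It did not pass without NI bird 1, SA bird 2 or SA bird 3. The ADP/ATP carriers SLC25A4 and SLC25A6 lay at -0.28 and 0.19, the carnitine carrier SLC25A20 at 0.16, and the family relatives MTCH1 and MTCH2 of the outer membrane at -0.11 and -0.10.

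No gene passed among 36 partners of the carriers, with 3 higher and 8 lower at an unadjusted p under 0.05 (30.6% of them, against the 12.4% of all genes). Of 12 genes of the import path of carrier proteins, 8 had a negative and 4 a positive sign, from -0.40 to 0.37. TIMM22, the channel that inserts carriers into the inner membrane, had 10.05, 10.08 and 10.09 in SA birds, against 9.66, 9.70, 9.76 and 9.71 in NI birds. All SA birds were above all NI birds with little spread in either group, and the difference was 0.37 (standard error 0.10, limma adjusted p = 0.180). TOMM20, a receptor of the outer membrane, lay the other way at -0.40, with all SA birds below all NI birds (limma adjusted p = 0.275).

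Among 14 other transporters of the inner membrane, SFXN2, a sideroflexin, came nearest to the threshold. It had 8.87, 8.57 and 8.62 in SA birds, against 9.25, 9.19, 9.12 and 9.37 in NI birds, all SA birds below, and a difference of -0.55 (standard error 0.12, limma adjusted p = 0.110). In the same list the calcium uniporter MCU lay at -0.43 and the proton-driven transhydrogenase NNT at -0.69, each with SA birds below NI birds. SFXN2 passed without SA bird 1 (-0.64, limma adjusted p = 0.0943) and NNT without SA bird 3 (-0.93, limma adjusted p = 0.0905). Of 4 outer membrane proteins, the channel VDAC1 lay at 0.42 with all SA birds above. Among 6 enzymes of the malate-aspartate and glycerol phosphate shuttles, the cytosolic MDH1 and GPD1 lay at -0.53 and -0.76 with SA birds below NI birds, whereas the aminotransferases GOT1 and GOT2 lay at 0.35 and 0.30 with overlapping groups.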

How the data were processed

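RNA of pectoralis biopsies from 3 SA and 4 NI birds was measured on chicken arrays. To make the deposited log2 values, the authors kept perfect-match probes above the 95th percentile of empty spots on at least 1 array, kept for each of 36897 probe sets the probe that ranked brightest over the arrays, and quantile normalized the arrays. No background subtraction is described. The deposited table held no other column of values.

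Symbols came from the platform annotation: 26108 probe sets had 1 symbol, 171 several (none of them SLC25A) and 10618 none. SA minus NI was fitted by lmFit and eBayes of limma 3.58.1, run in R 4.3.3 (5 residual degrees of freedom, prior 4.34), with Benjamini-Hochberg adjustment over all probe sets and a threshold of 0.10. No further filter was applied. The fit was tested on simulated arrays of independent normal values with limma's moderated SDs, in which a few randomly drawn probe sets were changed. It recovered 14% of changes of 0.5 log2 units, 89.7% of changes of 1 and 99.5% of changes of 2. Of its calls there 12.3% were false. These shares are over probe sets in general and are not the power for the carriers. The carriers had larger median SDs (0.234 in SA and 0.256 in NI) than all genes (0.178 in either group). Each array was a separate animal, and precision is limited by there being 7 of them.

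The members and lists were chosen with earlier results of these data known. Members were named if they passed, were among the 12 smallest p, had the smallest p of their substrate group or had another probe set that passed, and partner genes were named if they passed. SLC25A1, SLC25A3, SLC25A12, SLC25A21, SLC25A22, SLC25A24, SLC25A25, SLC25A29, SLC25A32, SLC25A37, SLC25A38, SLC25A42, SLC25A46, SLC25A48 and SLC25A51, and the partner genes that did not pass, were chosen after their values were seen. Alternatives were other normalizations, filters and variance priors, weighted arrays, sex as a covariate, a block for the replicate number, omission of single birds, other probe sets and a stricter threshold. Those for the counts of separated carriers and of carriers with an unadjusted p under 0.05, for the partner lists and for carriers outside the naming rule were added after seeing the data.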

Additional observations from a re-analysis of the deposited data

Results flagged for a closer look

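SLC25A30 in NI bird 2 stood apart from the other birds of its group. Its log2 intensity was 12.50, against 11.35 to 11.43 in the remaining 3 NI birds, and the gap made up 0.931 of the whole NI range, above Dixon's critical value of 0.829. The SA birds lay at 9.65, 10.08 and 10.93. Without NI bird 2 the difference was -1.18 (limma adjusted p = 0.218). In total 30 carriers were looked at in this way in the NI group and 1 stood out, where chance gives about 1 in 20. Groups of 3 birds were not tested.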

How the results depend on the processing

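No carrier passed under median centring, cyclic loess, repeated quantile normalization, both filters, the trend and robust priors, array weights, sex as a covariate, an adjusted p under 0.05 or other summaries of probe sets (smallest limma adjusted p 0.113 to 0.155 in the fits that kept the threshold and the probe sets). Carriers passed in 2 settings. Without NI bird 3 they were SLC25A28 and SLC25A43, in a fit that called 487 of all 36897 probe sets. With replicate number as a block 4 passed, SLC25A17 (-1.58, limma adjusted p = 0.0543), SLC25A36 (-1.01, 0.0617), SLC25A30 (-1.56, 0.0682) and SLC25A29 (-1.14, 0.0637). That fit called 624 of the 36897 probe sets, where the main fit called 394. NI bird 4 has no SA bird of its number, so this fit also takes it out of the difference. The labels do not say that a number pairs birds. Deviations of same-numbered birds correlated at 0.292, -0.026 and 0.173 for numbers 1, 2 and 3. SA birds 1 and 3 correlated best with the NI bird of their own number, and SA bird 2 with NI bird 3 (0.315). Leaving out 1 bird at a time gave 0 to 2 carriers, medians of -0.32 to -0.15, 10 to 16 separated carriers, 7 to 11 with an unadjusted p under 0.05, 0 to 2 family relatives and partners (SFXN2 added without SA bird 1, NNT in place of UCP3 without SA bird 3), and 95 to 487 probe sets (NI bird 2 left out gave 95, SA bird 3 gave 139, NI bird 1 gave 157, SA bird 2 gave 180 and NI bird 4 gave 243). The 16 separated carriers and the median of -0.32 were those without SA bird 1. With fewer birds, groups separate more easily by order alone, and the share of all genes separated in these fits was not taken. The share of all probe sets with an unadjusted p under 0.05 also moved, from 8.03% without SA bird 3 to 15.1% without SA bird 1.

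Array weights gave 766 probe sets, a family median of -0.25 and 3 partners or relatives (SFXN2, MDH1 and UCP3). The probe sets above the median mean alone gave 2 (SFXN2 and UCP3), the block 2 (GPD1 and UCP3), and an adjusted p under 0.05 gave 175 probe sets and 0 partners or relatives. The family median was -0.10 with the mean of all probe sets of a gene. It was 0.03 with the second brightest, where the 10 carriers with 1 probe set kept that one. The sign turned with the second brightest probe set in SLC25A14 (0.26), SLC25A15 (0.49), SLC25A36 (0.13) and SLC25A39 (0.41), and in SLC25A39 also with the mean (0.02). Causes were not tested. Of 254 alternative values of the 13 carriers named by rule, 244 kept sign and side of the threshold. Some of these could not have changed, so the count is no measure of stability. A stricter threshold cannot add a call where none was made, and repeated quantile normalization returned the same values. For dim carriers no subtraction of background was described, which limits their values.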

Other observations

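TIMM9, a small chaperone of the intermembrane space that escorts carrier proteins, varied widely between birds of both groups. Its log2 intensity was 11.59, 9.70 and 10.25 in SA birds, against 8.89, 11.52, 10.52 and 12.72 in NI birds. NI bird 4, SA bird 1 and NI bird 2 were the 3 highest and NI bird 1 the lowest, as for HBAD and TAL1 and unlike most of the 11 erythroid markers. The groups overlapped and the difference was -0.40 (standard error 0.79, limma adjusted p = 0.922).

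The other probe set of SLC25A3 had 10.48 in SA bird 1, against 8.66 to 8.70 in SA birds 3 and 2 and 8.64 to 8.85 in NI birds. The brightest probe set of the same gene gave 13.68, 13.65 and 13.56 in SA birds, and SA bird 1 did not stand out there. These values were chosen after they were seen.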
